A study of Mus musculus with 9 samples.

Results

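Transcription factors and regulators that mark cortical GABAergic interneurons were examined in the layers of mouse piriform cortex, the 3-layered cortex that receives olfactory bulb input. The 9 genes are Lhx6, Sox6, Satb1, Maf, Dlx1, Dlx5, Dlx6, Prox1 and Adarb2, chosen by name for their role in these cells out of 33984 annotated genes in the count files. Earlier results of these data were known when they were chosen. Each gene was represented by its Ensembl transcript with the highest mean count over the 9 samples. All 9 passed the filter on low counts, at least 10 counts in at least 3 samples, which kept 56416 of 95533 transcripts. The tissue came from wild type C57BL/6 mice, aged 8 weeks per the labels, although the study's methods give an older age. RNA was collected by laser capture from 3 layers labelled A, B and C, with 3 replicates of each, so that the question of each comparison was which genes differ in RNA level between layers. The labels do not say which letter stands for layer I, II or III, which was not inferred from expression, and nothing stated whether replicates were separate animals, so that p-values measure only the spread between these samples, which may be technical. No group was treated and every sample had the same genotype.

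Cortical interneurons release GABA and arise outside the cortex, in the ganglionic eminences of the ventral forebrain, from which they migrate tangentially. Homeobox factors of the Dlx family act early in most of these precursors. Lhx6, Sox6, Satb1 and Maf are used mainly by cells of the medial ganglionic eminence (MGE), which give rise to somatostatin and parvalbumin interneurons, whereas Prox1 and Adarb2 mark cells of the caudal ganglionic eminence (CGE), which give rise to classes such as Vip cells and many superficial neurogliaform cells. Several of these factors are also used by other cells, Sox6 by oligodendrocyte precursors and Maf by microglia among them.

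Total counts were between 23104306 and 76471683 per sample, of which mitochondrial transcripts took 13.1% to 72.6%, with the largest shares in layer A and in layer C replicate 2. Without them 6929782 to 60245059 counts remained, and the limit that 3 counts set lay between 0.0255 and 0.254 normalized CPM, counts scaled to a library of a common size, the unit of every level below unless stated. Layer B replicate 3 stood apart, since its log2 levels correlated with those of the other layer B samples at r = 0.917 and 0.909, across transcripts, whereas these correlated at 0.989 with each other. Its summed GABA genes (Gad1, Gad2 and Slc32a1) reached 168 CPM, against 45.2 and 40.1 in the other layer B samples. Calls of the 9 genes and counts of the interneuron and excitatory factor lists are therefore also given without it where they moved. Its high GABA genes were among the grounds, so that counts of interneuron genes without this sample are no independent support.

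The counted transcript of Lhx6, a LIM homeobox factor, was ENSMUST00000112960 (mm10, chr2:36081953-36105271, minus strand, 10 exons). Of the 8 listed Lhx6 transcripts 5, the counted one included, had mean counts within 10% of the highest. For Sox6, an SRY-box factor, it was ENSMUST00000072804 (chr7:115471344-115995086, minus strand, 17 exons), and for Satb1, a chromatin organizer, ENSMUST00000169480 (chr17:51736188-51826588, minus strand, 11 exons). Maf, a basic leucine zipper factor, was counted on the single-exon ENSMUST00000109104 (chr8:115701435-115707794, minus strand). Dlx1 was counted on a transcript annotated as a retained intron, ENSMUST00000145088 (chr2:71529947-71533981, plus strand). Dlx5 (ENSMUST00000052609, chr6:6877805-6882085, minus strand) and Dlx6 (ENSMUST00000160937, chr6:6863334-6868568, plus strand) are neighbours. Prox1, a prospero-type homeobox factor, had 1 transcript, ENSMUST00000010319 (chr1:190122453-190169399, minus strand). Adarb2, an RNA-binding relative of the RNA editing enzymes without known editing activity, was counted on ENSMUST00000064473 (chr13:8202866-8761530, plus strand, 10 exons). Near-identical counts on several isoforms show that the same reads were counted more than once, so that isoforms are not independent. The libraries carried no strand, and reads in the exonic overlap of Maf with the antisense Gm15655 (440 bases) and of Dlx1 with Dlx1as (335 bases) cannot be told apart.

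The 250 bases before a start site are shown for 3 genes that differed between layers in distinct ways, Lhx6 and, for the genes higher in layer A, Sox6 and Adarb2. The sequences are from RefSeq (GRCm38.p6), 5′ to 3′ on the strand of the gene, with the homeodomain core motif TAATTA, which is its own reverse complement, in capitals.
Lhx6 (chr2:36105409-36105658, minus strand): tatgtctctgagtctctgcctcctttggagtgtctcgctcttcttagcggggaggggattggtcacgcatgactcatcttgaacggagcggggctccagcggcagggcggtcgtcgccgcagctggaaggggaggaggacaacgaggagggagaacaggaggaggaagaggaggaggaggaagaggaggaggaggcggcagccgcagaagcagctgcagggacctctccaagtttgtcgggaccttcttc
Sox6 (chr7:115995087-115995336, minus strand): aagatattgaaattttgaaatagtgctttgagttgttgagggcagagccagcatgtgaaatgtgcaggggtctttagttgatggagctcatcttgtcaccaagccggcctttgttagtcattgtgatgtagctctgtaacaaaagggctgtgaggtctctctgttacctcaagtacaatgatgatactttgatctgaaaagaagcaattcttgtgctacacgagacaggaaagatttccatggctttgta
Adarb2 (chr13:8202616-8202865, plus strand): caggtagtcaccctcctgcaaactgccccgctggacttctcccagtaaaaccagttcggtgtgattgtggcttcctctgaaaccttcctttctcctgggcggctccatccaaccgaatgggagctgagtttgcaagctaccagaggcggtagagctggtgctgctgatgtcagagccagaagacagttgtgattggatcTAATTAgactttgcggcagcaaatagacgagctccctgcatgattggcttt
The Sox6 and Adarb2 windows end at the start of the counted transcript, and the Lhx6 window at a start shared by 2 other transcripts with counts close to the counted one. Of the 9 genes, 6 had such windows in the RefSeq table, 18 in all, and Maf, Dlx5 and Dlx6 had none. The motif was found in 1 of the 18, that of Adarb2, at position -51 from the start, and in 4.84% of 32851 windows of all genes. A match is a description of these letters and no evidence of a bound site.

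Between layers A and B, 4 of the 9 genes differed, and all 4 were higher in layer A: Sox6, Maf, Prox1 and Adarb2 (edgeR quasi-likelihood test, Benjamini-Hochberg adjusted p under 0.05 over all transcripts tested). Over all 56416 transcripts 16.5% passed in either direction, with 10.7% higher in layer A and 5.83% higher in layer B. At an unadjusted p under 0.05, 5 of the 9 genes differed, against 29% of all transcripts. The median log2 fold change of the 9 genes, layer A over layer B, was 1.10, against -0.12 over all transcripts tested. Every layer A sample lay above every layer B sample for 7 of the 9 genes, the exceptions being Lhx6 and Dlx6, against 17.2% of all transcripts. The reverse held for 0 of 9, against 15.1%. Margins were narrow for Dlx5 (lowest layer A sample 0.423 CPM, highest layer B sample 0.395), Satb1 (13.3 and 12.6) and Prox1 (2.99 and 2.72). Without layer B replicate 3 the count of genes that passed was 6 of 9, Satb1 and Dlx1 being added, with a background of 20.4%. That count was 2 of 9 without layer A replicate 1 or without layer B replicate 1, fits for which no share of all transcripts was taken. Without layer A replicate 1 the calls over all transcripts also fell, from 9329 to 5571. Without layer B replicate 3 samples of 8 of 9 genes did not overlap, with a background of 23.8%. In bulk tissue such as this, fewer cells of a type and less RNA per cell cannot be told apart.

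Between layers A and C, 1 gene passed, Lhx6, which was lower in layer A, against 11.3% of all transcripts in either direction, 6.98% higher in layer A and 4.35% higher in layer C. At an unadjusted p under 0.05 there were 4 genes (Lhx6, Sox6, Maf and Prox1), against 24.5% of all transcripts. The median log2 fold change of the 9 genes was 0.13, against -0.01 over all transcripts. Samples did not overlap for 2 genes, Maf with every layer A sample above layer C (17% of all transcripts) and Lhx6 with every layer C sample above layer A (14.5%). Without layer B replicate 3, which adds to the common estimate of the spread, 3 genes passed, Lhx6, Sox6 and Maf, with a background of 17.5%.

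Between layers B and C, 0 of the 9 genes and 0% of all transcripts passed in edgeR's quasi-likelihood test, where the smallest adjusted p over all transcripts was 0.0698. At an unadjusted p under 0.05, 6 of the 9 genes and 4.11% of all transcripts (2316) differed. The log2 fold change, layer B over layer C, was negative for all 9 genes, from -2.0 to -0.58, with a median of -1.21 against 0.07 over all transcripts. Every layer C sample lay above every layer B sample for 5 genes, Lhx6, Sox6, Dlx1, Dlx5 and Adarb2, against 4.67% of all transcripts, and the reverse for 0 of 9, against 3.92%. Without layer B replicate 3 this held for 8 of 9 genes, all but Prox1, against 15.3%, while 0 of 9 passed the test against 0.0305% (17 transcripts). DESeq2 called 130 of 56416 transcripts and 1 of the 9 genes, Lhx6 (log2 fold change -2.01, adjusted p = 0.0469). Besides Lhx6, the values of layer B over layer C were -1.42 for Sox6, -1.21 for Satb1, -0.76 for Maf and -0.89 for Adarb2, with standard errors of 0.38 to 0.44. The comparisons share samples, layer A or B or C standing in 2 of them each, so that their fold changes are not independent.

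**Figure D1:**
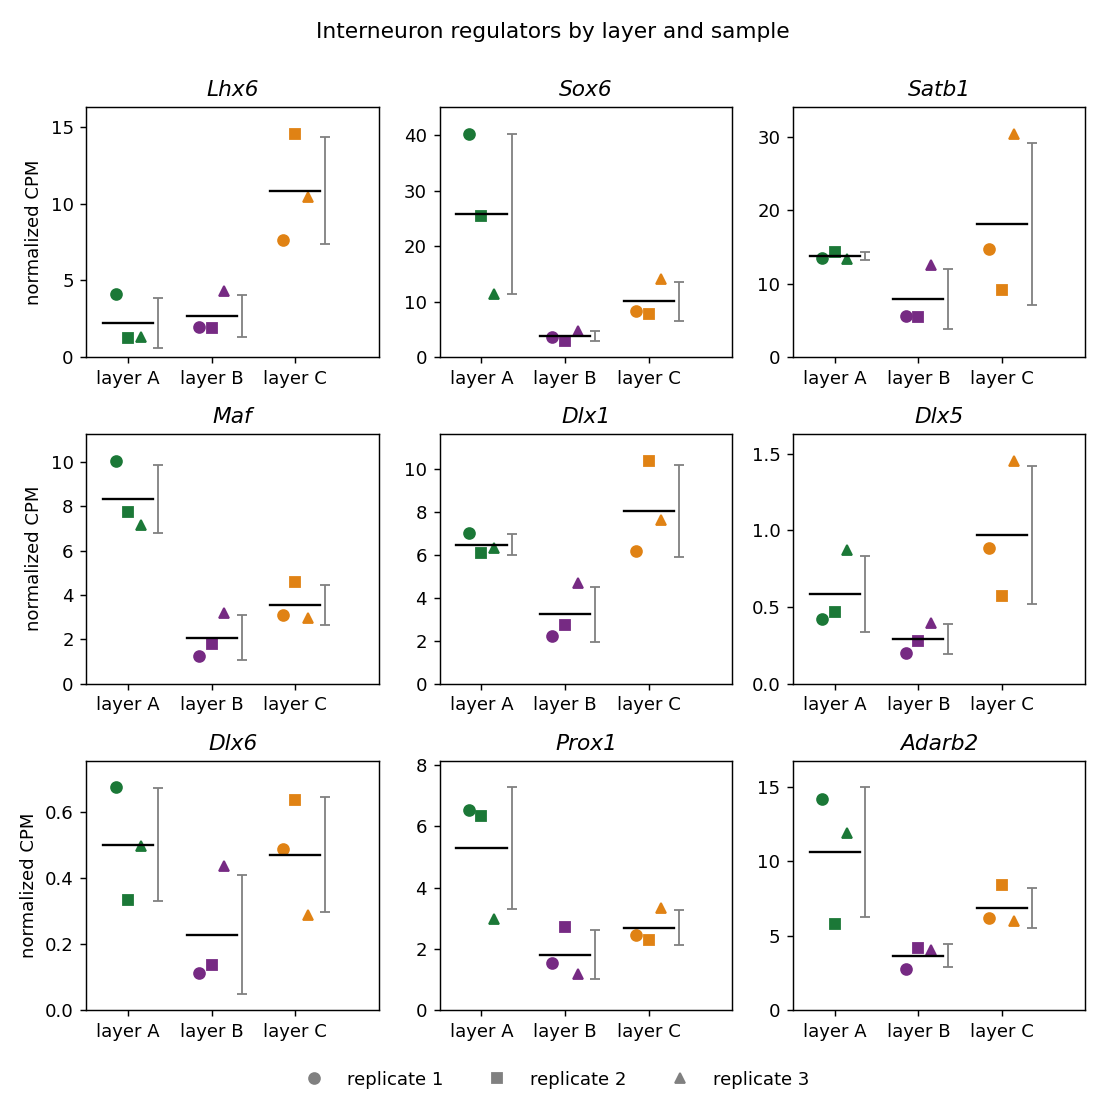
Normalized CPM of the 9 genes in each sample, by layer on the horizontal axis, with a linear vertical axis from 0. Symbols are the 3 replicates, black lines the layer means and grey bars 1 SD on each side of the mean. Lhx6 was the only one of the 9 whose layer C samples all lay above its layer A samples, and Sox6, Maf, Dlx6, Prox1 and Adarb2 had their highest mean in layer A.

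Lhx6, which is kept by MGE-derived interneurons into adulthood, was measured at 4.14, 1.27 and 1.29 CPM in layer A, next to 1.95, 1.87 and 4.28 in B and 7.62, 14.6 and 10.4 in C. The 3 layer C samples were the highest of all 9, and layers A and B overlapped. The mean of layer C, 10.9 ± 3.50 (SD, n = 3), stood above those of layer A, 2.24 ± 1.65, and layer B, 2.70 ± 1.37. The level in layer C was 4.99-fold that in layer A (log2 fold change, layer A over layer C, -2.32, SE 0.52, adjusted p = 0.0117, edgeR quasi-likelihood). Of its 6 tested transcripts 5 passed in the same comparison, with values from -2.32 to -2.29 over the 6. The call was lost without layer A replicate 2 (adjusted p = 0.0598 in edgeR) or replicate 3 (0.0516), while the log2 fold change stayed between -3.08 and -2.0. Against layer B the layer C level was 4.01-fold (log2 fold change -2.0, SE 0.50, layer B over layer C), with an adjusted p of 0.541. For layer A over layer B the log2 fold change was -0.32 (SE 0.51, adjusted p = 0.737), and it was 0.22 without layer B replicate 3 and -1.07 without layer A replicate 1.

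Sox6, which acts after Lhx6 in the maturation and placing of MGE interneurons, was read at 40.2, 25.5 and 11.4 CPM in layer A. The layer B samples gave 3.61, 2.88 and 4.76 and those of layer C 8.23, 7.83 and 14.0. Layer B was lowest with no overlap to either other layer, and layer A was spread over more than a 3-fold range, its replicate 3 lying below the highest layer C sample. Layer A exceeded layer B 6.82-fold (log2 fold change 2.77, SE 0.45, adjusted p = 0.000919, edgeR quasi-likelihood), and the call was kept in each of 9 fits that left out 1 sample. All 5 Sox6 transcripts passed, their log2 fold changes lying between 2.38 and 2.81. Against layer C the values of the 5 transcripts lay between 0.81 and 1.35, and 0 passed. The counted transcript gave the highest log2 fold change, 1.35 (SE 0.43), with an adjusted p of 0.0534 (edgeR) that lay just above the threshold. Over the 9 fits that left out 1 sample it lay between 0.87 (adjusted p = 0.276, edgeR, without layer A replicate 1) and 1.72, and 3 of these fits passed, those without replicate 3 of layer A (0.0168), B (0.0262) or C (0.0459). It also passed in DESeq2 (0.0241).

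Markers of oligodendrocyte precursors, which also use Sox6, were highest in layer A as well. All 6 of 6 precursor markers (Pdgfra, Cspg4, Olig1, Olig2, Sox10, Gpr17) were higher in layer A than layer B and 2 (Pdgfra and Gpr17) also than layer C. Their summed level was 95.4 to 137 CPM in layer A, next to 18.8 to 34.1 in B and 43.1 to 60.6 in C, and none was at 0 in any sample. Pdgfra, a receptor gene of this list, had 59.5, 50.7 and 26.7 CPM in layer A, with the same order of replicates as Sox6. The part of these cells in the layer difference of Sox6 was not tested.

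Maf, which acts in the choice of MGE interneuron fates, had 10.1, 7.74 and 7.17 CPM in layer A. In layer B it had 1.23, 1.8 and 3.20 and in layer C 3.09, 4.59 and 2.95. The 3 layer A samples were the highest, and layers B and C overlapped. Layer A exceeded layer B 3.99-fold (log2 fold change 2.0, SE 0.42, adjusted p = 0.00453, edgeR quasi-likelihood), a call kept in each of 9 fits that left out 1 sample, and its second transcript passed with 1.38. Against layer C the log2 fold change was 1.24 (SE 0.41, adjusted p = 0.0642), whereas the second transcript gave 0.31. Of the 9 fits that left out 1 sample, only the one without layer B replicate 3 passed (adjusted p = 0.0147), the highest adjusted p being 0.241, and it was 0.0245 in DESeq2.

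Markers of microglia, in which Maf is also known, differed in the same direction. Of 6 microglial markers 4 (Cx3cr1, Csf1r, P2ry12 and Tmem119) were higher in layer A than layer B and the same 4 were also higher there than layer C. The sum over the 6 was 82.5 to 101 CPM in layer A, next to 12.5 to 27.5 in B and 30.7 to 41.1 in C, with none at 0. Their part in the result for Maf was not tested.

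Satb1, which follows Lhx6 in MGE-derived interneurons and is also used by other neurons, had 13.4, 14.3 and 13.3 CPM in layer A. It had 5.54, 5.46 and 12.6 in layer B and 14.7, 9.11 and 30.4 in layer C. The layer A samples were close together and above layer B, whose replicate 3 was more than 2-fold above the other layer B samples, and layer C overlapped with both. The log2 fold change of 0.80, layer A over layer B (SE 0.44) had an adjusted p of 0.247, and without layer B replicate 3 it was 1.37 with an adjusted p of 0.0301 (edgeR quasi-likelihood). Against layer C it was -0.41 (SE 0.43, adjusted p = 0.638), and 0.22 without layer C replicate 3, the highest sample. Of 13 transcripts 3 passed between layers A and B, and all 13 had positive values, 0.63 to 2.31.

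The Dlx genes, whose factors promote GABAergic fate and migration, gave 0 calls of 3 in all 3 comparisons of layers, where 16.5%, 11.3% and 0% of all transcripts passed. Dlx1 had 7.02, 6.07 and 6.32 CPM in layer A, next to 2.24, 2.72 and 4.70 in B and 6.17, 10.4 and 7.60 in C. Layer B was lowest with no overlap, and layers A and C overlapped. The log2 fold change, layer A over layer B, was 1.00 (SE 0.38, adjusted p = 0.0833). It passed without layer B replicate 3 (1.43, adjusted p = 0.00942, edgeR quasi-likelihood), when counts were summed by gene (log2 fold change 1.08, adjusted p = 0.0205) and in DESeq2 (1.02, adjusted p = 0.0495). Between layers B and C it was -1.32 (SE 0.38, unadjusted p = 0.0031 and adjusted p = 0.715 in edgeR), and between layers A and C -0.31 (SE 0.37). Of 5 tested Dlx1 transcripts 1 passed between layers A and B, with values from 0.18 to 1.18 over the 5.

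Dlx5 and Dlx6 had the lowest counts of the 9 genes, with 5 to 171 counts per sample for Dlx5 and 5 to 34 for Dlx6. Dlx5 had 0.42, 0.47 and 0.87 CPM in layer A, next to 0.20, 0.28 and 0.39 in B and 0.88, 0.57 and 1.45 in C. Its layer B samples were below all others. Its log2 fold change was 1.06 for layer A over layer B (SE 0.61, adjusted p = 0.277) and -1.76 between layers B and C (SE 0.59, adjusted p = 0.886, edgeR). Dlx6 had 0.68, 0.33 and 0.50 CPM in layer A, next to 0.11, 0.14 and 0.44 in B and 0.49, 0.64 and 0.29 in C, and all layers overlapped. Its log2 fold change, layer A over layer B, of 1.10 (SE 0.73, adjusted p = 0.350) was 2.02 without layer B replicate 3 (adjusted p = 0.0732, edgeR). Dlx5 and Dlx6 gave -0.70 and 0.13 for layer A over layer C (SE 0.59 and 0.72), and neither passed.

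Prox1, which is needed for the settling and maturation of CGE interneurons, had 6.51, 6.34 and 2.99 CPM in layer A. It had 1.55, 2.72 and 1.18 in layer B and 2.45, 2.29 and 3.33 in layer C. All layer A samples were above layer B, by a small margin for layer A replicate 3, which lay within the range of layer C. Layer A exceeded layer B 2.88-fold (log2 fold change 1.53, SE 0.45, adjusted p = 0.0291, edgeR quasi-likelihood). The call was lost without layer A replicate 1 (adjusted p = 0.108), layer A replicate 2 (0.101) or layer B replicate 1 (0.0941), each in edgeR. Against layer C the log2 fold change was 0.95 (SE 0.44, adjusted p = 0.200), and between layers B and C -0.58 (SE 0.44). Prox1 was the only one of the 9 genes that was lower in layer B replicate 3 than in both other layer B samples.

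Adarb2, a marker of CGE-derived interneurons in mouse and human cortex, had 14.2, 5.80 and 11.9 CPM in layer A. It had 2.80, 4.2 and 4.05 in layer B and 6.22, 8.41 and 5.97 in layer C. Layer B was lowest with no overlap to either other layer, and layer A replicate 2 lay below the layer C samples. Layer A exceeded layer B 2.88-fold (log2 fold change 1.53, SE 0.39, adjusted p = 0.0131, edgeR quasi-likelihood). The call was lost without layer A replicate 1 (adjusted p = 0.0658) or layer B replicate 1 (0.0613, both in edgeR). Of 4 Adarb2 transcripts 2 passed, with log2 fold changes from -0.30 to 1.53 over the 4. Set against layer C, the counted transcript gave 0.64 (SE 0.38, adjusted p = 0.335).

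Astrocyte and vascular markers also moved with the genes that were higher in layer A. All 10 of 10 astrocyte markers were higher in layer A in both comparisons, with sums of 4903 to 10396 CPM in layer A, next to 681 to 1131 in B and 1211 to 1664 in C. Of 6 endothelial markers 6 exceeded layer B in layer A and 5 exceeded layer C, with sums of 104 to 124, 7.07 to 19.3 and 14.2 to 24.1 CPM. All 6 meningeal markers were higher in layer A in both, from 57.8 to 135 CPM in sum against 1.18 to 6.71 in layer B and 3.65 to 4.95 in layer C. Of these lists only the meningeal Slc6a13 was at 0 in a sample, layer C replicate 2. The part of these cells in the values of Prox1 and Adarb2 was not tested.

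**Figure D2:**
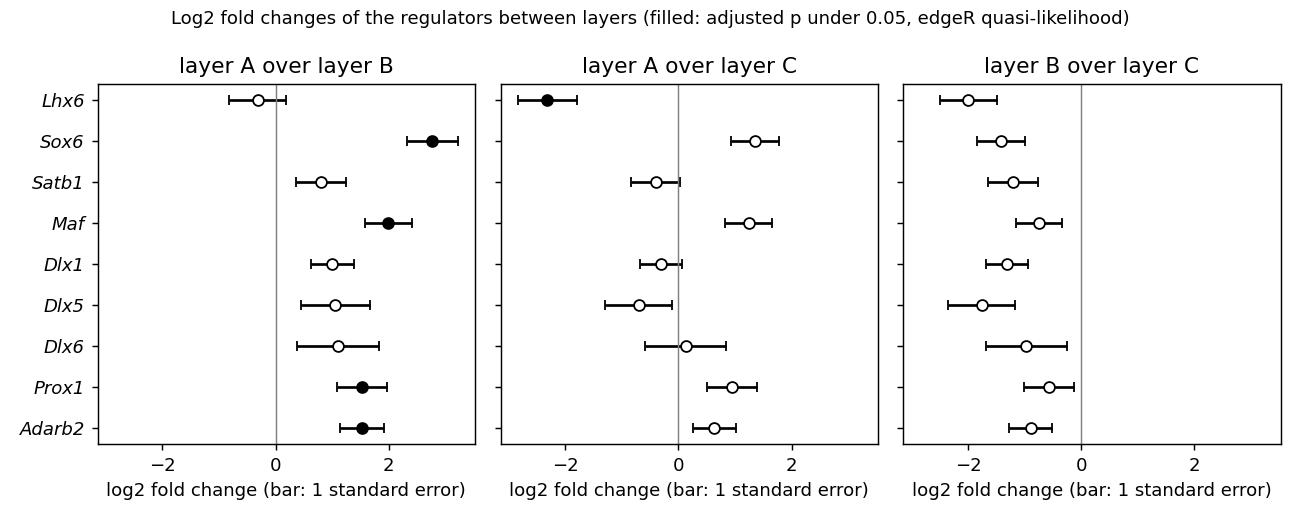
Log2 fold changes of the 9 genes between each pair of layers on the horizontal axis, with bars of 1 standard error and filled points where the adjusted p was under 0.05. In the comparison of layer A over layer B 8 of 9 points lie above 0 and 4 are filled, Lhx6 alone is filled for layer A over layer C, at -2.32, and all 9 points lie below 0 with none filled for layer B over layer C.

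A single test of any difference among the 3 layers passed for 4 genes against 14.3% of all transcripts. These were Sox6 (adjusted p = 0.00186), Lhx6 (0.00669), Maf (0.00909) and Adarb2 (0.0360), all in edgeR's quasi-likelihood test. Dlx1 (0.0630) and Prox1 (0.0660) lay just above the threshold. The Adarb2 call was kept in 4 of the 9 fits that left out 1 sample and lost without layer A replicate 1 (adjusted p = 0.148) or 3 (0.101), layer B replicate 1 (0.127) or 2 (0.0612) or layer C replicate 1 (0.0604), and that of Maf was lost without layer A replicate 1 (0.0551, all in edgeR). In the fit without layer B replicate 3, 6 of the 9 genes passed. Calls over all transcripts rose as well, from 8061 of 56416 to 11312 of 55684.

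Levels were compared between genes per kilobase of the counted transcript. In layer A, Sox6 stood first with 3.13 ± 1.75 CPM per kb (SD, n = 3), followed by Satb1 with 2.21 ± 0.0885 and Dlx1 with 1.91 ± 0.145. The ranges of Sox6 and Satb1 overlapped, while those of Satb1 and Dlx1 did not. Prox1 (1.61), Adarb2 (1.58) and Maf (1.31) followed with overlapping ranges, and Lhx6 was 7 of 9 with 0.668 ± 0.494, its range overlapping that of Maf. In layer B all mean levels were below those in layer A except that of Lhx6, which ranked 3 of 9 with 0.807 ± 0.410 after Satb1 (1.27) and Dlx1 (0.951), these 3 ranges overlapping. In layer C, Lhx6 stood first with 3.25 ± 1.05 CPM per kb, before Satb1 with 2.92 ± 1.78 and Dlx1 with 2.38 ± 0.632, again with overlapping ranges, and Sox6 was 4 of 9 with 1.22 ± 0.419, its range below that of Dlx1. Dlx5 and Dlx6 were low in every layer, Dlx6 lowest of the 9 in each with 0.103 to 0.227 CPM per kb on average. Reads counted on several isoforms limit how exactly this order can be read. With counts summed by gene, Satb1 stood first in layers A and C, before Sox6 in layer A and Lhx6 in layer C, and Lhx6 was 5 of 9 in layer A.

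The same levels were set against the summed GABA genes of each sample, a ratio chosen after values had been seen and given without a test. The sum of Gad1, Gad2 and Slc32a1 was 334, 188 and 169 CPM in layer A, next to 45.2, 40.1 and 168 in B and 110, 131 and 194 in C. Lhx6 was 1.24%, 0.676% and 0.765% of it in layer A, next to 4.32%, 4.66% and 2.55% in B and 6.91%, 11.1% and 5.37% in C, so that none of the layers overlapped for this gene. Sox6 was 12.1%, 13.6% and 6.74% in layer A, next to 8.00%, 7.20% and 2.84% in B and 7.47%, 5.96% and 7.20% in C, with overlap between all layers. Maf, with means of 3.79% in layer A, next to 3.04% in B and 2.6% in C, and Adarb2, with means of 4.80%, 6.37% and 5.04%, overlapped as well. Prox1 had means of 2.37%, 3.64% and 1.89%, its layer B samples ranging from 0.707% to 6.79%.

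**Figure D3:**
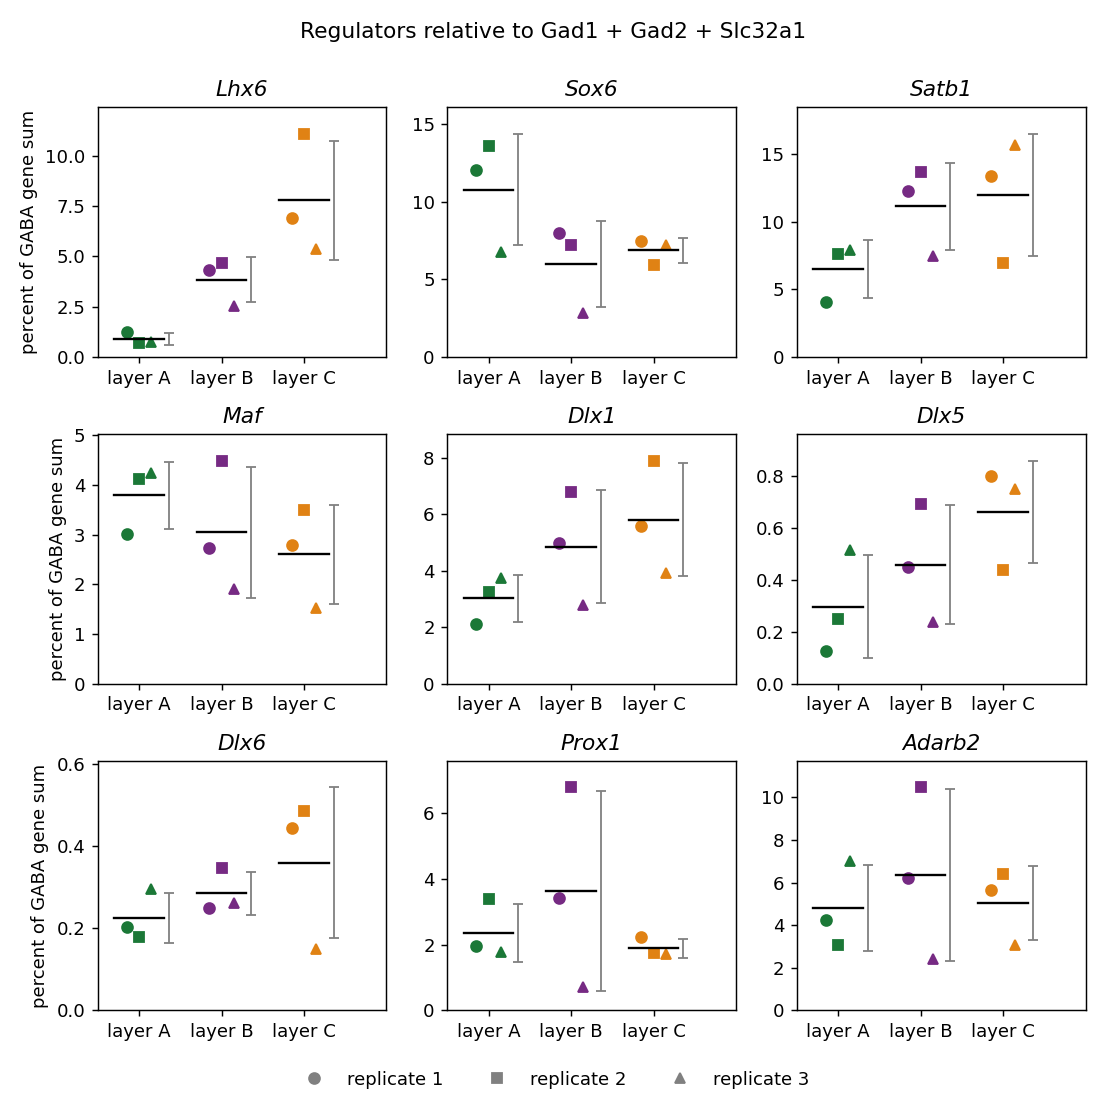
The 9 genes as a percentage of the summed normalized CPM of Gad1, Gad2 and Slc32a1 in the same sample, by layer, with symbols for the 3 replicates, black lines for means and grey bars for 1 SD on each side. Only the Lhx6 panel has 3 layers without overlap, with layer A between 0.676% and 1.24% and layer C between 5.37% and 11.1%.

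Of 20 other regulators of interneuron development, 19 were found in the files and 16 were tested. Relative to layer B, 2 of 16 were higher in layer A, Tox and Dlx6os1, and 0 lower, a share close to the 10.7% of all transcripts that were higher there. Relative to layer C 1 was higher in layer A, Dlx6os1, and between layers B and C 0 of 16 passed in edgeR, with 1 at an unadjusted p under 0.05 and 0 in DESeq2. These 3 counts were 4, 2 and 0 without layer B replicate 3. Their median log2 fold changes were 0.09, 0.15 and -0.39, against -0.12, -0.01 and 0.07 over all transcripts tested. Dlx6os1, the long noncoding RNA on the strand opposite Dlx6, had 25.5, 18.7 and 10.9 CPM in layer A, next to 3.90, 3.23 and 6.82 in B and 5.59, 5.92 and 7.42 in C. Its layer A samples were above all others, with log2 fold changes of 1.97 over layer B (SE 0.40, adjusted p = 0.0035) and 1.53 over layer C (SE 0.39, adjusted p = 0.0208, edgeR). It spans Dlx6 without exonic overlap with the counted Dlx6 transcript. Tox, an HMG-box factor, had 21.5, 7.54 and 8.54 CPM in layer A and 2.65, 2.31 and 7.13 in layer B (log2 fold change 1.63, SE 0.51, adjusted p = 0.0401, edgeR), with 4.51, 7.01 and 9.29 in layer C. The Tox call was lost without layer A replicate 1 (adjusted p = 0.257), layer B replicate 1 (0.128) or 2 (0.12) or layer C replicate 2 (0.0537), and that of Dlx6os1 over layer C without layer A replicate 1 (0.102) or 2 (0.0624) or layer C replicate 1 (0.117) or 2 (0.0694), all in edgeR. Dlx2, the partner of Dlx1 on the same chromosome, was at 0.0846 to 1.27 CPM over the 9 samples with log2 fold changes of -0.47, -0.36 and 0.11, none of which passed.

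Of 5 genes of GABA synthesis, release, uptake and breakdown, 3 had higher levels in layer A than layer B, Gad2 and Abat among them, and 0 of 5 passed in either comparison with layer C. Against layer C, layer A had 2 and layer B 4 of 5 at an unadjusted p under 0.05, and DESeq2 called 1 and 0. Gad2, a GABA-synthesizing enzyme, had 267, 137 and 120 CPM in layer A, next to 30.0, 26.0 and 83.7 in B and 78.2, 96.7 and 144 in C. Layer B was lowest for Gad2 apart from its replicate 3, and layer A exceeded layer B with a log2 fold change of 1.91 (SE 0.45, adjusted p = 0.0094, edgeR quasi-likelihood), or 1.47 without layer A replicate 1 (adjusted p = 0.0589). The GABA-degrading enzyme Abat (log2 fold change 1.56), also used by astrocytes, was higher as well. Gad1, the other synthesizing enzyme, had 59.5, 45.2 and 43.8 CPM in layer A, next to 13.1, 12.3 and 77.6 in B and 25.9, 28.5 and 41.4 in C. Its layer B replicate 3 was the highest of all samples, and its log2 fold change of 0.53, layer A over layer B (SE 0.54) had an adjusted p of 0.573. Slc32a1, the vesicular transporter, was at 1.8 to 8.74 CPM and passed in none of the 3 comparisons. All 5 passed between layers A and B, and 1 between layers A and C, without layer B replicate 3.

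Of 20 markers of interneuron subclasses 19 were tested. Between layers A and B, 3 were higher in layer A (Ndnf, Reln and Kit) and 3 in layer B (Cck, Lamp5 and Crhbp). Against layer C, the same 3 had higher levels in layer A and 4 had lower ones (Sst, Cck, Crhbp and Elfn1), and 0 of 19 passed between layers B and C in edgeR, with 7 at an unadjusted p under 0.05 and 1 in DESeq2. Counts in either direction were 4, 14 and 2 of 19 without layer B replicate 3, in place of 6, 7 and 0. Ndnf, a marker of superficial neurogliaform cells, had 67.6, 32.2 and 28.1 CPM in layer A against 1.41 to 2.89 in layer B and 2.55 to 3.60 in layer C. Its log2 fold changes were 4.45 over layer B and 3.79 over layer C (SE 0.45 and 0.43). Kit, a receptor tyrosine kinase, was higher in layer A by 2.08 over layer B and 1.36 over layer C. Reln, which encodes the secreted protein reelin, was higher there by 0.96 and 2.41. Reln is not confined to interneurons. The study found reelin protein mostly in excitatory neurons in layer IIa and mostly in GABAergic cells in layers I and III. The neuropeptide gene Cck, which excitatory neurons also express, gave -2.30 and -3.02, and Crhbp, which encodes a protein that binds corticotropin-releasing hormone, -2.71 and -4.30. Lamp5 passed between layers A and B alone, with -1.42. Between layers A and B the calls of Reln, Cck and Crhbp were lost in 7, 3 and 3 of the 9 fits that left out 1 sample, the fit without layer B replicate 3 among them for each, where Crhbp gave -0.94 and Cck -1.41. Over layer C the Kit call was lost in 4 fits (without layer A replicate 1 or 2 or layer C replicate 1 or 2) and that of Cck without layer A replicate 1 (adjusted p = 0.0526, edgeR).

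Sst, the somatostatin gene of a class of Lhx6-expressing interneurons, had 7.95, 3.20 and 4.18 CPM in layer A, next to 4.35, 4.27 and 72.8 in B and 49, 71.7 and 66.6 in C. The layer C samples and layer B replicate 3 were high and the other 5 low. For layer A over layer C the log2 fold change was -3.62 (SE 0.87, adjusted p = 0.0152, edgeR quasi-likelihood), the sign being that of Lhx6, and the call was lost without layer A replicate 2 (adjusted p = 0.0747), layer A replicate 3 (0.0645) or layer C replicate 1 (0.0502, all in edgeR). Elfn1, a synaptic protein of somatostatin interneurons, had 6.09, 2.67 and 5.98 CPM in layer A next to 3.66, 4.5 and 11.6 in B and 17.5, 19.7 and 27.8 in C (log2 fold change -2.14, SE 0.47, adjusted p = 0.0099, edgeR). Pvalb (0 to 4.61 CPM, with 0 counts in layer A replicate 1), Vip (1.13 to 34.8) and Npy (1.57 to 29.4) had their highest or second-highest level in layer B replicate 3 and passed in none of the 3 comparisons. In layer B replicate 3 Vip stood at 34.8 CPM against 7.02 and 7.96 in the other layer B samples.

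**Figure D4:**
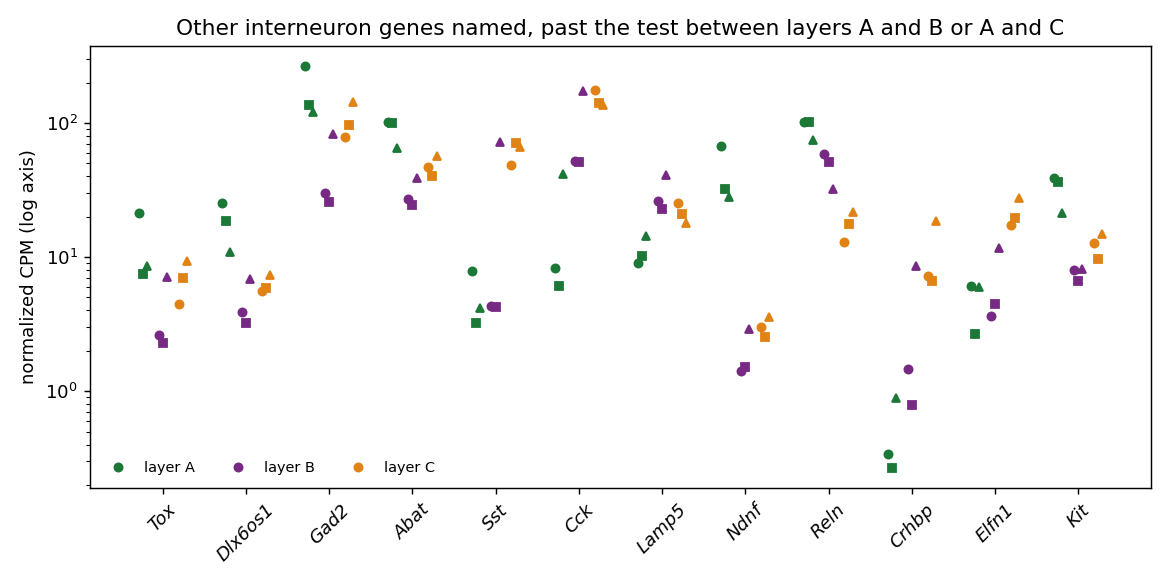
Normalized CPM, on a log axis, of named genes from the interneuron lists other than the 9 regulators. All passed between layers A and B or layers A and C. Genes stand in order of list, with colours for layers and circles, squares and triangles for replicates 1, 2 and 3. Sst in layer B replicate 3 lies with the layer C samples, and Ndnf, Reln, Dlx6os1 and Kit have all layer A samples above the rest.

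Transcription factors of excitatory neurons, set beside the 9 genes for contrast, had negative median log2 fold changes in layer A against both other layers. Of 10, 4 were lower in layer A than layer B (Tbr1, Neurod1, Neurod2 and Mef2c) and 0 higher, against 5.83% and 10.7% of all transcripts. The median log2 fold change was -1.23 against 1.10 for the interneuron regulators. Of the 10 values 9 were negative and 1 was positive, at 1.97. Set against layer A, 5 were higher in layer C (among them Neurod1, Neurod2, Neurod6 and Mef2c), against 4.35% of all transcripts, with a median of -1.04. Between layers B and C 0 of 10 passed in edgeR, with 4 at an unadjusted p under 0.05 and 0 in DESeq2. Leaving out layer B replicate 3 gave counts of 6, 5 and 0. The 19 tested markers of interneuron subclasses also had negative medians, -1.21 for layer A over layer B and -0.93 for layer A over layer C. Summed excitatory neuron markers, given with the closing observations, were instead highest in layer A. Differences between these lists were not tested.

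**Figure D5:**
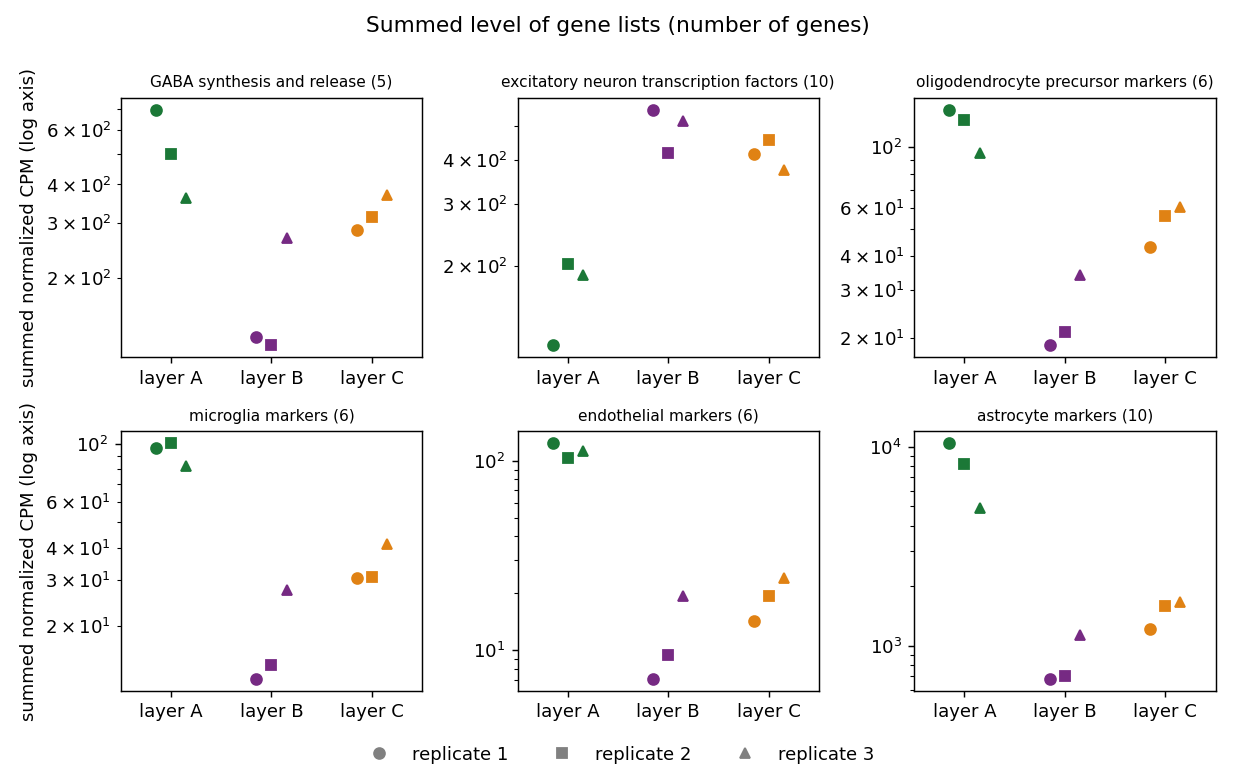
Summed normalized CPM, on log axes, of 6 gene lists in each sample by layer, with the number of genes in each panel title and symbols for replicates. Layer A lies above the others for the glial and endothelial markers, below them for the excitatory neuron factors, and the GABA genes of layer B replicate 3 (269 CPM) lie above those of the other layer B samples (129 and 122).

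The genes with the pattern most like that of each regulator over the 9 samples were ranked by the root mean square (RMS) difference of centred log2 levels, 0 being identical, among 11723 or 11724 other genes. Lhx6 was closest to Elfn1 (0.479), Kcnip1 (0.487) and Apc (0.523), and its own RMS deviation from its mean was 1.20. Sox6 was closest to Pdgfra (0.273), Car8 (0.323) and Tgfbr1 (0.328), against an own deviation of 1.18. Maf was closest to Tgfb2 (0.170), Aldh9a1 (0.187) and Irak1 (0.207). For Prox1 these were Sox8 (0.256), Apba1 and Arrb1, and for Adarb2 Csf1 (0.220), Ptprm and Pard3. For Dlx1 they were Pmepa1 (0.241) and Parm1, and for Satb1 the pseudogene Gm6977 (0.328), Rcan2 and Stac2. Dlx5 was closest to Lynx1 (0.356), Stac2 and Inf2, and Dlx6 to Ctnnd2 (0.220), Zfand2a and Dusp1. Among the 9 themselves the closest pairs were Dlx1 and Dlx6 (0.340) and Satb1 and Dlx5 (0.370). These distances rest on 9 libraries that differ in depth and mitochondrial share, and carry no test.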

How the data were processed

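RNA of piriform cortex layers was measured in 9 samples, labelled by layer (A, B or C) and replicate number. The authors amplified the RNA (Ovation RNA-Seq), prepared strand non-specific libraries, used Bowtie to align the paired-end reads to mm10, and deposited unnormalized read counts for each Ensembl transcript. The submitters' processing notes also name bcl2fastq 1.8.4 and HTSeq 0.5.3, and the Ensembl release and the treatment of reads shared between transcripts were not given in the sources used here. Amplified reads are not independent molecules, so that count limits cover counting error only.

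Identifiers were looked up in the GENCODE M21 gene annotation (GRCm38, the assembly that UCSC names mm10), in which 82807 of 95533 (86.68%) were found. Counts were tested with edgeR 4.0.16 (R 4.3.3), by quasi-likelihood F-tests with TMM library sizes, layer as the sole term and 1 fit over all 9 samples. Benjamini-Hochberg adjustment ran over the 56416 transcripts that reached 10 counts in 3 or more samples. Normalized CPM are counts scaled to a common TMM library size. The script was tested on simulated counts. Alternatives were RLE normalization, other filters, DESeq2 1.42.0, a replicate block, gene sums, fits of 6 samples, leaving out mitochondrial transcripts, and leaving out each sample. A count of non-overlapping samples without layer B replicate 3 was added after the data were seen.

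The 9 genes and all gene lists were chosen with earlier results of these data known. Named were all 9 genes, the listed interneuron genes that passed or stood in a set group (Gad1, Gad2, Slc32a1, Sst, Pvalb, Vip, Npy, Dlx2, Dlx6os1), and 3 genes of most similar pattern, from log2 CPM with 0.1 added, among genes with a mean of at least 1 CPM. Some genes that met this rule are not reported here. Replicate pairs of a layer differed by 12.8 to 106 times the counting noise (chi-square per degree of freedom), so that none was taken for 1 library deposited more than once. Amplified libraries of 1 RNA would also exceed that noise, so this says nothing on separate animals. Markers of striatal, intercalated and endopiriform neurons and of mature oligodendrocytes are given with the closing observations.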

Additional observations from a re-analysis of the deposited data

How the results depend on the processing

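The spread of 3 samples a layer and 1 discordant library, layer B replicate 3, limit these comparisons, and Dlx5 and Dlx6 had the lowest counts. Of 593 values of the 9 genes under alternatives, 546 kept their side of the threshold and direction, 14 lost and 27 gained a call, and 6 changed sign with no call in either fit. RLE normalization and removal of mitochondrial transcripts changed no count by more than 1.5 times. Levels per kilobase moved beyond 1 SD in 24 of 27 values when counts were summed by gene, since a read is then added once per isoform. Where no cause is named, the cause was not tested.

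With no filter on low counts, the calls between layers A and B were 4 for other interneuron regulators and 7 for excitatory factors, those between layers A and C 2 for the 9 genes and 2 for other regulators, and those between layers B and C 10 over all transcripts. With at least 10 counts in all 9 samples, which tests fewer genes, other regulators had 4 between layers A and B and 2 against layer C, where the 9 genes had 3, GABA genes 1 and excitatory factors 3. DESeq2 gave 4 other regulators and 7 excitatory factors between layers A and B. Against layer C it gave layer A 3 of the 9 genes, 2 other regulators and 1 GABA gene, with 8883 of 56416 transcripts in all. It gave layer B 1 of the 9 genes, 1 subclass marker and 130 transcripts in all. Gene sums, which test fewer features, called 4918 (A and B), 3637 (A and C), 5 (B and C) and 4389 (any layer) genes, with 2 of the 9 genes and 3 other regulators between layers A and C. Fits of 6 samples called 3 subclass markers between layers A and B, and 3 of the 9 genes and 2 other regulators between layers A and C.

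Leaving out 1 sample moved the calls between layers A and B from 5571 (without layer A replicate 1) to 11336 (without layer B replicate 3) over all transcripts, 2 to 6 for the 9 genes, 1 to 4 for other regulators, 2 to 5 for GABA genes, 3 to 9 for subclass markers and 2 to 6 for excitatory factors. Between layers A and C these were 1369 (without layer C replicate 1) to 9742 (without layer B replicate 3), 0 to 3, 0 to 2, 0 to 1, 5 to 14 and 2 to 5. Between layers B and C they were 0 to 17 over all transcripts and 0 to 2 for subclass markers, and 0 for the other lists in each of the 9 fits. Any layer gave 4070 to 11312 transcripts and 2 to 6 of the 9 genes.

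Sign changes had no call in either fit. Leaving out 1 sample gave, for layer A over layer B, -1.07 to 0.22 for Lhx6 (positive without layer A or B replicate 3), -0.94 to 1.10 for Dlx2, -2.90 to 0.28 for Sst, -1.82 to 1.13 for Npy and -0.68 to 0.33 for Elfn1, these 4 positive without layer B replicate 3. For layer A over layer C it gave -0.72 to 0.22 for Satb1 (positive without layer C replicate 3), -0.14 to 0.38 for Dlx6 (negative without layer A replicate 1 or layer C replicate 3) and -0.82 to 0.47 for Dlx2. For layer B over layer C it gave -1.46 to 0.90 for Dlx2, -1.38 to 0.48 for Gad1, -2.48 to 0.30 for Pvalb, -0.053 to 1.48 for Vip and -3.06 to 0.16 for Npy. Gene sums gave -0.37 for Dlx6, layer A over layer C, and -0.0078 and -0.078 for Dlx2 and Gad1, layer B over layer C, for which the replicate block gave -0.27 each.

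Whether replicate numbers pair samples across layers was not stated, and correlations of 9 samples cannot decide it. Deviations of samples with the same number from their layer means correlated at -0.229 to 0.276 (mean 0.0717, 5 of 9 pairs over 0.1). For different numbers the mean was -0.0302 and the highest value 0.498, with 6 of 18 pairs over 0.1. With the replicate number as a block, 9184 and 6384 transcripts passed between layers A and B and layers A and C, other regulators had 2 calls between layers A and C, and Adarb2 missed the threshold for any layer (adjusted p = 0.0538, edgeR).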

Other observations

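Other neuron types and mature oligodendrocytes in the same captures were described by their markers. Of 8 striatal projection neuron markers 7 were tested, and 4 were higher in layer B than layer A (Drd1, Penk and Pde10a among them), while 1 (Pde10a) was higher in layer C than layer A. Penk, which encodes enkephalin, had 8.79, 10.9 and 23.3 CPM in layer A, 58.6, 41.1 and 128 in layer B and 20.1, 16.6 and 18 in layer C, with a log2 fold change of -2.39, layer A over layer B. Of 3 markers of intercalated amygdala neurons 1 was higher in layer A than layer B (Tshz1, log2 fold change 1.08). Of 5 endopiriform and claustrum markers 2 were higher in layer C than layer A, Nr4a2 and Oprk1. Nr4a2, a nuclear receptor factor, had 8.70, 14.3 and 57.6 CPM in layer C against 1.53 to 5.34 in the other layers, and its replicate 3 was also the sample with the highest Satb1.

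Of 6 excitatory neuron markers, 3 were higher in layer B than layer A and 1, Camk2a, the reverse. Layer A exceeded layer C in 1 (Camk2a) and was below it in 3. The 6 summed to 2383 to 4238 CPM in layer A, 1301 to 1417 in B and 1233 to 1814 in C. Of 6 oligodendrocyte markers 1 passed between layers A and B, Cnp, and 0 between layers A and C, where 0 also had an unadjusted p under 0.05. Their summed level was 158 to 260 CPM in layer A, 42 and 45.4 in layer B replicates 1 and 2, 210 in its replicate 3, 126 and 128 in layer C replicates 2 and 1 and 469 in its replicate 3. The samples with the highest Satb1 within layers B and C had the highest sums of these markers, whereas in layer A replicate 3 had the highest sum (260 CPM) and the lowest Satb1 (13.3). Their part in the Satb1 values was not tested. DESeq2 was not run as a separate count for these marker lists.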
